A study of Drosophila melanogaster with 15 samples.

Results

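The cytosolic ribosome of *Drosophila melanogaster* is built from a small (40S) and a large (60S) subunit, and the transcripts described here encode its proteins. They were taken from the deposited table by their symbols: RpL or RpS followed by digits and an optional letter suffix, *RpLP0* to *RpLP2*, and *sta*. The rule found 84 of the 12133 entries of the table, of which 37 encode 40S and 47 encode 60S proteins. It was read so that suffixes such as Aa and Ab count, which added 3 genes (*RpL10Ab*, *RpS15Aa* and *RpS15Ab*). All libraries came from midguts of *w1118* larvae, a white-eyed laboratory strain without transgenes, raised on a yeast-only diet, with sex not determined. Early L2 larvae were dissected 2 days after egg laying, late L2 larvae after 3 days and early L3 larvae after 4 days. There were 5 biological replicates per stage, and each pooled 60 midguts at early L2, 30 at late L2 or 10 at early L3, so that stage and number of pooled midguts cannot be told apart. Whether replicates came from separate egg collections is not stated in the labels, so p-values measure the spread between these pools.

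Ribosomal proteins assemble with ribosomal RNA in the nucleolus into the subunits that translate mRNA, and a complete ribosome needs 1 copy of almost every protein. Growing tissues therefore make these transcripts in large and similar amounts. In *Drosophila*, loss of 1 copy of many of these genes gives the Minute phenotype, with slow development and short bristles. Several proteins are encoded by a pair of paralogs (a and b), of which 1 copy is often known mainly from the germline.

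Recovered library totals ranged from 23981806 to 33902298 reads. Levels are given in CPM, reads after scaling every library to one shared sum, so that each value is a share of the library and RNA per midgut was not measured. Early L3 replicate 1 (31.6) and late L2 replicate 4 (-5.63) stood apart from their stages on the first principal component, which held 59.1% of the variance. On it, late L2 replicate 2 (-24.6) lay within the early L2 range of -39.9 to -20.8. The early L2 libraries lay in order of replicate number, at -39.9, -36.7, -33.0, -24.8 and -20.8. Their replicate 5 lay within the late L2 range of -24.6 to -5.63. The enterocyte list had 6 of 8 markers in the table, none at 0 in all libraries, with a summed level of 4320 to 5215 CPM at early L2, 3687 to 4458 CPM at late L2 and 4980 to 6302 CPM at early L3. Visceral muscle markers (10 of 10) summed to 6261 to 9140 CPM at early L2, 5597 to 6709 CPM at late L2 and 5275 to 6107 CPM at early L3. Into early L3, 2 enterocyte markers rose, beside 6.45% of all entries, and none fell. No visceral muscle marker fell or rose in that interval. Tracheal markers (8 of 8) summed to 36.6 to 57.5 CPM in early L3 and 83.5 to 181 CPM in late L2. Between these stages 7 of them fell, beside 18.7% of all entries, and 1 rose, beside 6.45%. Hemocyte markers (8 of 9) summed to 105 to 126 CPM at early L2, 176 to 242 CPM at late L2 and 297 to 352 CPM at early L3, nearly all of it from *crq*. Of the 7 tested, 2 rose during L2, beside 3.38% of all entries, and 2 into early L3, beside 6.45%. Enteroendocrine markers (9 of 9) summed to 205 to 246 CPM at early L2, 148 to 189 CPM at late L2 and 150.3 to 156 CPM at early L3. Of these 6 fell during L2, beside 6.51% of all entries, and 1 into early L3, beside 18.7%. Of 6 tested progenitor markers, 3 rose during L2, beside 3.38% of all entries, and none fell or rose into early L3. Of 3 tested fat body markers, 1 fell during L2, beside 6.51% of all entries, and none fell or rose into early L3. The part of these other tissues and cell types in the results was not tested. In such bulk samples, fewer cells of a type and less RNA per cell cannot be told apart.

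Of the 84 genes, 82 reached 0.5 CPM in at least 1 library and were tested, and 80 averaged at least 50 CPM across all 15 libraries. These 80 spanned 190 to 2732 CPM, with a median of 1112 CPM. *RpL3*, a core 60S protein near the peptidyl transferase centre, had the highest mean in CPM. Per kilobase of exon, which allows genes to be compared, the 80 genes lay between 306 and 5501 CPM per kb, with a median of 1235. *RpL41*, which encodes a very short peptide, was highest (5501 CPM per kb over 320 exon bases), followed in the 60S subunit by the stalk protein gene *RpLP1* (2396) and by *RpL27A* (2394). In the 40S subunit the highest were *RpS27A*, made as a fusion with ubiquitin (2496), *RpS18* (1742) and *RpS30* (1661). *RpL34a* was lowest of the 80 at 306 CPM per kb. *RpL5* was also low at 493 CPM per kb, where the divisor is 3835 annotated exon bases. Across the 80 genes, levels in early L3 and early L2 followed nearly the same order (Spearman's rho 0.993 and Pearson's r 0.994 on the log2 scale, over genes that share the same libraries).

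Ribosomal protein transcripts took a smaller share of the library in early L3. They held 10.96, 10.8, 11.1, 10.7 and 10.9% of the reads in the 5 early L2 libraries. In late L2 the share was 10.5, 10.95, 9.93, 9.22 and 10.04%, and in early L3 it was 7.47, 6.63, 7.66, 6.89 and 7.38%. Every early L3 library lay below every L2 library, and late L2 replicate 4 was the lowest of the L2 libraries. Both subunits moved alike: 60S transcripts averaged 4.23 ± 0.264% in early L3 and 5.95 ± 0.372% in late L2, and 40S transcripts averaged 2.98 ± 0.168% in early L3 and 4.17 ± 0.277% in late L2 (SD, n = 5 each). The ratio of 60S to 40S reads was 1.423 ± 0.00289 at early L2, 1.427 ± 0.0143 at late L2 and 1.421 ± 0.00957 at early L3 (SD, n = 5 each). Ranges of this ratio overlapped between all stages, from 1.410 to 1.448, and no test was made.

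**Figure D1:**
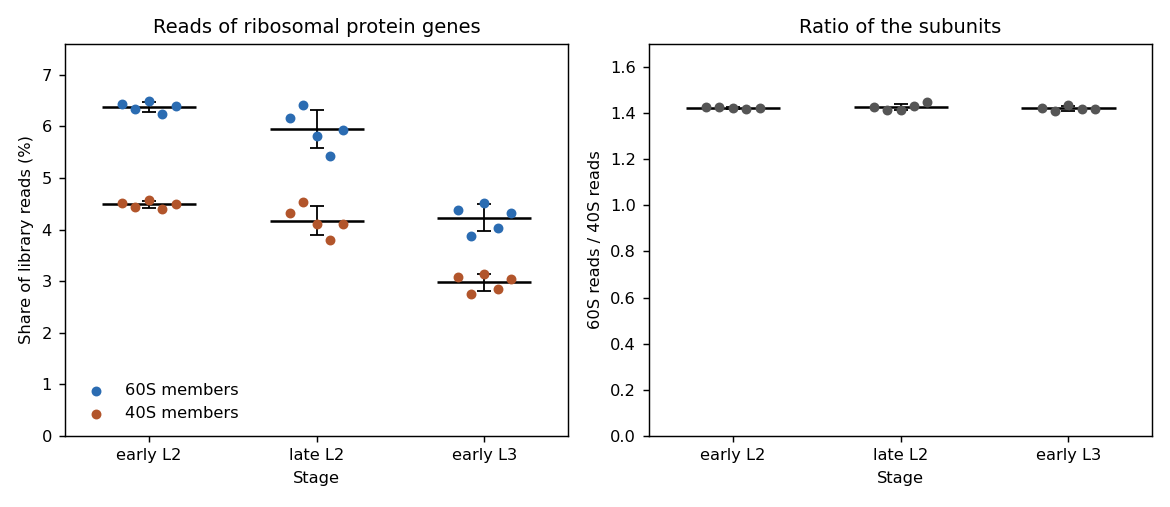
Left, share of library reads (%) held by 60S (blue) and 40S (orange) genes in each library at early L2, late L2 and early L3; right, ratio of 60S to 40S reads. Points are libraries, bars the mean and SD of 5; both shares are lowest in early L3 (means 4.23% and 2.98%), while the ratio stays between 1.410 and 1.448.

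Between late L2 and early L3 the whole group was lower. All of the 82 tested genes had an adjusted p under 0.05 in the lower direction, where 37.0% of all 9787 tested entries did (limma on log2(CPM + 0.5), Benjamini-Hochberg adjustment over all entries). For all 82 every early L3 library also lay below every late L2 library, where 28.3% of entries did. A gene is said to have fallen or risen only where, in addition, it changed by 0.5 or more on the log2 scale. By this criterion 32 of 82 fell, beside 18.7% of all entries, and 0 rose, beside 6.45%. None was higher at an unadjusted p under 0.05, and none rose with edgeR or DESeq2. The median log2 fold change was -0.48, a level 28.5% lower, beside -0.11 over all entries. The middle 50% of the genes lay between -0.52 and -0.45, that of all entries between -0.40 and 0.14. Without *RpS5b*, the SD of the changes over genes was 0.07, beside 0.67 over all entries and 0.53 over the 1391 entries that averaged 100 CPM or more.

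The count of genes that fell depended on the scale, since most changes lie close to the minimum. *RpL11* (-0.506) and *RpS16* (-0.505) were just inside, *RpS3* (-0.498) and *RpS4* (-0.495) just outside. With median-ratio scaling, which moves the median of all entries by more than 0.1 to 0.02, the median of the group was -0.34 and 3 genes fell (*sta*, *RpS2* and *RpS5b*), beside 13.1% of all entries, so that the share that fell was above that of all entries on the CPM scale and below it on this one. All 82 kept an adjusted p under 0.05 in 27 of 28 other settings of the scale, filter, test and libraries, and 81 did with quantile normalization. The count was 18 without late L2 replicate 2, 18 without early L3 replicate 2, 49 without early L3 replicate 3, 56 without late L2 replicate 4, and 59 without both libraries that stood apart.

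**Figure D2:**
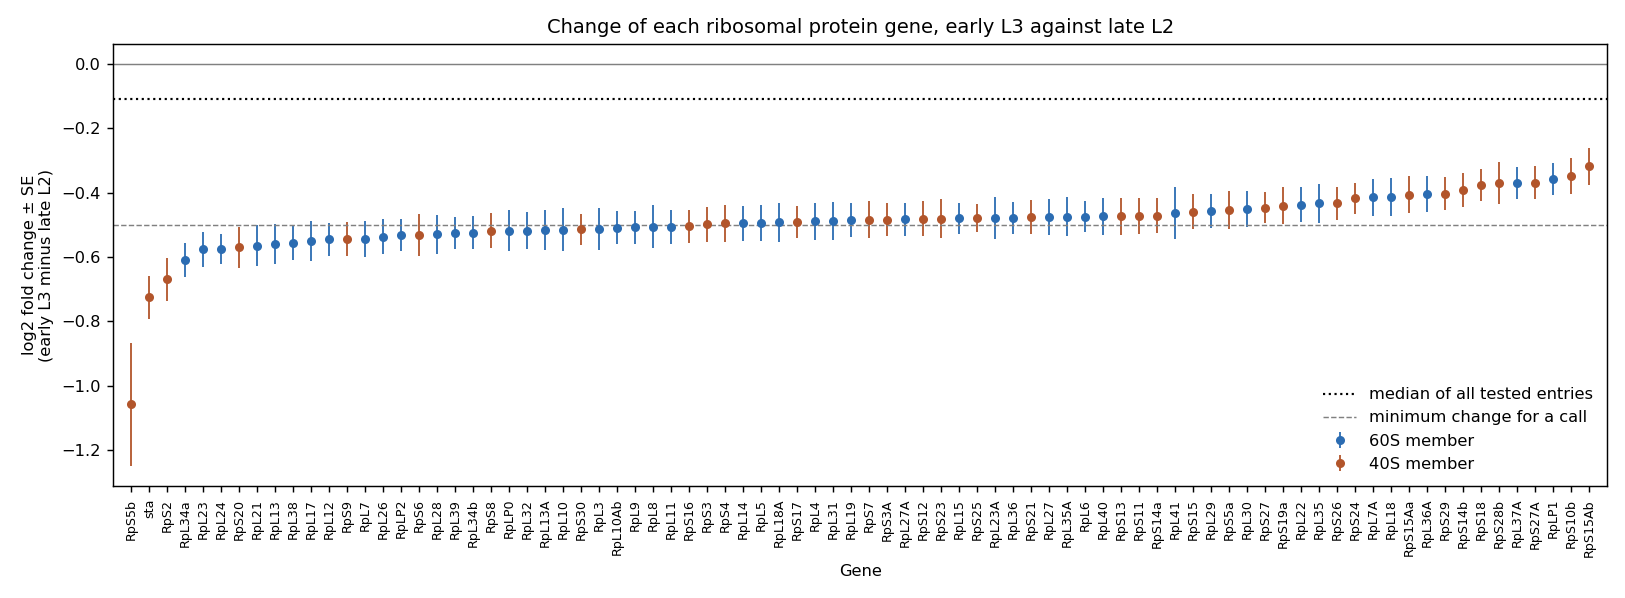
log2 fold change (early L3 minus late L2, with its SE) of each of the 82 tested genes, ordered by size, 60S in blue and 40S in orange. All lie below the median of all entries (-0.11, dotted), from *RpS5b* at -1.06 to *RpS15Ab* at -0.32, and most are close to the minimum change for a call (-0.5, dashed).

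Among 40S genes 9 of 35 fell, with a median of -0.48, and among 60S genes 23 of 47 fell, with a median of -0.49. The difference between the counts was not tested. *sta*, which encodes the laminin-receptor-like 40S protein RpSA, changed most among genes of high level. It had 1414, 1240, 1440, 1271 and 1414 CPM in early L3, against 2322, 2520, 2274, 1951 and 2158 CPM in late L2. The groups did not overlap (log2 fold change -0.73 ± 0.07 SE, limma adjusted p = 6.4e-07). *RpS2*, a core protein near the mRNA entry channel, had 1352, 1146, 1327, 1215 and 1325 CPM in early L3, against 2203, 2225, 1984, 1824 and 1893 CPM in late L2. It fell by 0.67 ± 0.07 on the log2 scale (SE, limma adjusted p = 1e-06), again without overlap. Of the 60S genes, *RpL34a* (-0.61), *RpL23* (-0.58) and *RpL24* (-0.57) changed most. None of these fell with median-ratio scaling, where the 60S subunit had 0 falls.

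The 3 genes of the P stalk, the flexible arm of the 60S subunit that recruits elongation factors, were all lower. *RpLP0*, the base of the stalk, averaged 1208 ± 76.3 CPM in early L3 and 1733 ± 154 CPM in late L2 (log2 fold change -0.52). *RpLP2* averaged 916 ± 54.2 CPM in early L3 and 1324 ± 64.0 CPM in late L2 (-0.53). *RpLP1*, which pairs with RpLP2, averaged 1498 ± 84.4 CPM in early L3 and 1918 ± 101 CPM in late L2 (SD, n = 5 each). Its change of -0.36 was smaller than the minimum. Of the ubiquitin fusions, *RpL40* (-0.47) and *RpS27A* (-0.37) were also below the minimum in size, and exons of *RpS27A* share bases on the same strand with *Ip259*. *RpS6*, the classical substrate of S6 kinase, fell by 0.53 on the log2 scale to 1092 ± 88.9 CPM in early L3, against 1578 ± 131 CPM in late L2 (SD, n = 5 each). *RpL32*, whose transcript (rp49) is widely used as a reference in RT-qPCR, was at 631, 567, 708, 609 and 649 CPM in early L3, against 924, 961, 906, 814 and 921 CPM in late L2. It fell by 0.52 ± 0.06 (SE), close to the median of the group.

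During L2 the changes were small. Of the 82 genes, 1 fell between early and late L2 (*RpS5b*), beside 6.51% of all entries, and 0 rose, beside 3.38% (2 were higher at an unadjusted p under 0.05 with limma, and 0 rose with edgeR or DESeq2). The median log2 fold change was -0.11, beside 0.01 over all entries. At an adjusted p under 0.05 alone, 8 of the 82 were lower, beside 12.8% of all entries. This count depended on the processing: it was 31 with DESeq2, beside 14.1% of all entries, 27 with quantile normalization, beside 14.0%, 15 with median-ratio scaling, beside 13.1%, and 23 without late L2 replicate 2, beside 12.8%. Over 28 other settings it lay between 5 and 31. *RpL35A*, a 60S protein, was at 789, 770, 713, 661 and 763 CPM in late L2, against 892, 860, 941, 894 and 792 CPM in early L2 (-0.25 ± 0.06 SE, limma adjusted p = 0.00712). This was the most negative change after that of *RpS5b*.

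Over both intervals, 73 of 82 genes fell between early L2 and early L3, beside 24.3% of all entries, and 0 rose, beside 9.86%. The median was -0.59, beside -0.15 over all entries. With median-ratio scaling 13 of 82 fell, beside 18.5% of all entries, with a median of -0.44. *RpL10* (-0.49) and *RpLP1* (-0.49) were just outside the minimum, *RpS28b* (-0.51) and *RpL29* (-0.51) just inside. The later interval was compared with the earlier one in the same fit. The change into early L3 was more negative than that during L2 for 76 of 82 genes at an adjusted p under 0.05, beside 26.8% of all entries, and for 7 with a difference of at least 0.5, beside 18.4%. These 7 were *RpL34a*, *RpS2*, *sta*, *RpL38*, *RpL21*, *RpL10* and *RpL24*, with differences from -0.74 to -0.51. With median-ratio scaling the 76 became 49, beside 19.9% of all entries, and the 7 became 2, beside 13.3%. The 7 also became 2 with TMM, edgeR and DESeq2, 23 without late L2 replicate 4 and 25 without both libraries that stood apart.

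Since the group moved together, single genes were also set against the total of ribosomal protein reads in the same library. On that scale, between late L2 and early L3, 6 of 82 genes were lower at an adjusted p under 0.05, beside 12.3% of all entries, and 10 were higher, beside 55.8%, as most other entries rose against this total. The genes below were chosen after their values were seen. *sta* held 1.88 ± 0.0266% of the ribosomal protein reads in early L3 and 2.21 ± 0.0828% in late L2 (SD, n = 5 each). Its early L3 range of 1.84 to 1.92% lay below the late L2 range of 2.12 to 2.30% (relative log2 fold change -0.24, limma adjusted p = 0.000131). *RpS2* held 1.77 ± 0.0370% in early L3 and 2.00 ± 0.0794% in late L2 (SD, n = 5 each), also without overlap (-0.18, limma adjusted p = 0.00135). In the other direction, *RpS10b*, a protein of the 40S head, held 1.05 ± 0.0315% in early L3 and 0.948 ± 0.0237% in late L2 (SD, n = 5 each). Its relative change was 0.14 (limma adjusted p = 0.00277), while in CPM it was lower. *RpLP1* held 2.08 ± 0.0257% in early L3 and 1.90 ± 0.0431% in late L2 (SD, n = 5 each), a relative change of 0.13 (limma adjusted p = 0.00205).

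**Figure D3:**
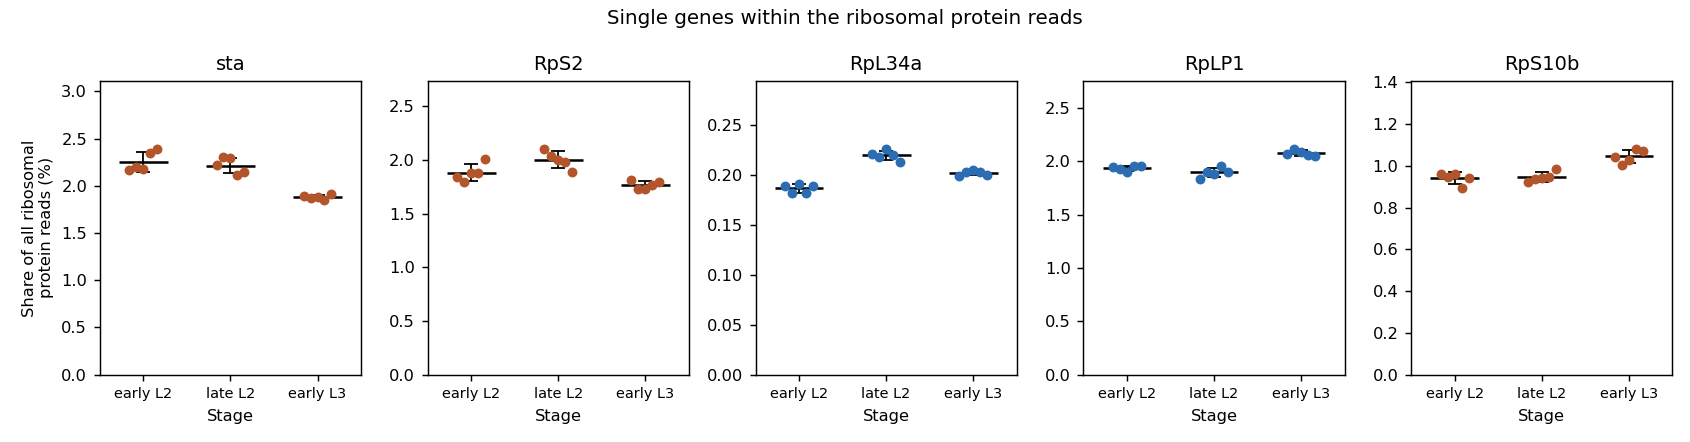
Share (%) of all ribosomal protein reads held by *sta*, *RpS2*, *RpL34a*, *RpLP1* and *RpS10b* in each library at early L2, late L2 and early L3; points are libraries, bars the mean and SD of 5, each axis starting at 0. *sta* and *RpS2* are lowest in early L3 (1.88% and 1.77%), *RpLP1* and *RpS10b* highest (2.08% and 1.05%), and *RpL34a* is highest in late L2 (0.220%).

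Both copies were in the table for 6 paralog pairs, and in each 1 copy held most reads. How reads that match both copies were assigned is not given in the sources used here, so the split between near-identical copies is uncertain. For 4 pairs the log2 ratio of the copies was compared over 3 pairs of stages, 12 comparisons in all, each with an exact 2-sided permutation test whose smallest possible p is 0.00794. With Benjamini-Hochberg adjustment over the 12 comparisons, a p of 0.00794 became 0.0119, and 10 of the 12 stayed under 0.05. *RpL34a* and *RpL34b* encode a 60S protein from chromosome 3R. *RpL34a* had 232, 239, 224, 203 and 214 CPM in late L2, against 207, 196, 211, 193 and 206 CPM in early L2, while *RpL34b* had 755 ± 56.3 CPM in late L2 and 810 ± 16.002 CPM in early L2 (SD, n = 5 each). *RpL34a* thus held 22.8 ± 0.348% of the pair in late L2 and 20.02 ± 0.532% in early L2 (SD, n = 5 each; ratio change 0.24, exact permutation p = 0.00794). In early L3 both copies were lower, *RpL34a* at 149, 135, 157, 140 and 148 CPM, and its share was 21.7 ± 0.341% (SD, n = 5). That was below late L2 (ratio change -0.09, exact permutation p = 0.00794) and above early L2 (0.15, exact permutation p = 0.00794), with no overlap in any of the 3 comparisons.

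*RpS14a* and *RpS14b*, which encode the same 40S platform protein, lie side by side on X (BDGP6.54, 7933742 to 7934677 and 7934898 to 7935792, plus strand). *RpS14a* averaged 875 ± 27.9 CPM at early L2, 807 ± 54.4 CPM at late L2 and 582 ± 35.1 CPM at early L3 (SD, n = 5 each). *RpS14b* averaged 353 ± 12.9 CPM at early L2, 302 ± 21.7 CPM at late L2 and 229.7 ± 12.96 CPM at early L3 (SD, n = 5 each). The share of *RpS14b* was 28.8 ± 1.05% at early L2, 27.2 ± 0.233% at late L2 and 28.3 ± 0.468% at early L3 (SD, n = 5 each). The ratio of *RpS14a* to *RpS14b* changed by 0.11 during L2 (exact permutation p = 0.0238) and by -0.08 into early L3 (exact permutation p = 0.00794). Between early L3 and early L2 it differed by 0.03 (exact permutation p = 0.373).

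*RpS15Ab* on 2R has a single exon and was far lower than *RpS15Aa* on X. It had 19.2, 18.7, 19.2, 18.5 and 20.5 CPM at early L2, 22.6, 20.2, 21.2, 22.5 and 21.4 CPM at late L2, and 17.5, 15.7, 15.9, 18.4 and 18.6 CPM at early L3. Every early L3 library lay below every late L2 library, and early L3 overlapped early L2. Its share of the pair was 1.42 ± 0.0376% at early L2, 1.73 ± 0.177% at late L2 and 1.82 ± 0.164% at early L3 (SD, n = 5 each). The ratio of *RpS15Aa* to *RpS15Ab* differed by -0.37 between early L3 and early L2 (exact permutation p = 0.00794) and by -0.28 between late L2 and early L2 (exact permutation p = 0.0159). The late step of -0.09 did not pass (exact permutation p = 0.381).

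*RpS5b*, the copy of *RpS5a* known mainly from the female germline, fell in both intervals. It had 4.85, 3.79, 2.80, 3.09 and 1.86 CPM at early L2, 1.37, 1.25, 1.02, 0.619 and 1.06 CPM at late L2, and 0.297, 0.199, 0.327, 0.128 and 0.265 CPM at early L3. No stage overlapped another. *RpS5b* reached the filter of 0.5 CPM only in L2 libraries, and all its early L3 values lay under 0.5 CPM. Its calls into early L3 are thus those of a gene admitted by the stages where it was high. The log2 fold change was -1.24 ± 0.19 during L2 (SE, limma adjusted p = 0.000251) and -1.06 ± 0.19 into early L3 (SE, limma adjusted p = 0.000245), and edgeR on the recovered reads gave -1.60 and -1.98. These values rest on 55 to 134 reads per library at early L2, 18 to 40 at late L2 and 4 to 9 at early L3. With a pseudocount of 4 the change into early L3 was -0.25 and not called. *RpS5a*, which holds 14 annotated snoRNA genes, averaged 1747 ± 36.6 CPM at early L2, 1610 ± 135 CPM at late L2 and 1174 ± 70.6 CPM at early L3 (SD, n = 5 each). The log2 ratio of *RpS5a* to *RpS5b*, taken on CPM + 0.5, changed by 1.12 during L2 and by 0.60 into early L3 (exact permutation p = 0.00794 for each). Early L3 values of *RpS5b* lie below the added 0.5, so the later step depends on it and the sizes of these steps cannot be compared. With a pseudocount of 4 the later step was -0.20 (exact permutation p = 0.00794). *RpS5b* held 0.187% of the pair at early L2, 0.0653% at late L2 and 0.0205% at early L3. Beside it, germline markers (8 of 10 in the table, 4 tested, none at 0 in all libraries) summed to 3.23 to 4.15 CPM at early L2, 2.48 to 3.51 CPM at late L2 and 2.13 to 2.81 CPM at early L3. The 4 tested markers had median log2 fold changes of -0.15 during L2 and -0.12 into early L3, and none passed the test in either interval. Between early L2 and early L3 the median was -0.30. At an adjusted p under 0.05 (limma) 2 of the 4 were lower, beside 42.7% of all entries, and none was higher, beside 22.3%. The part of germline RNA was not tested.

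**Figure D4:**
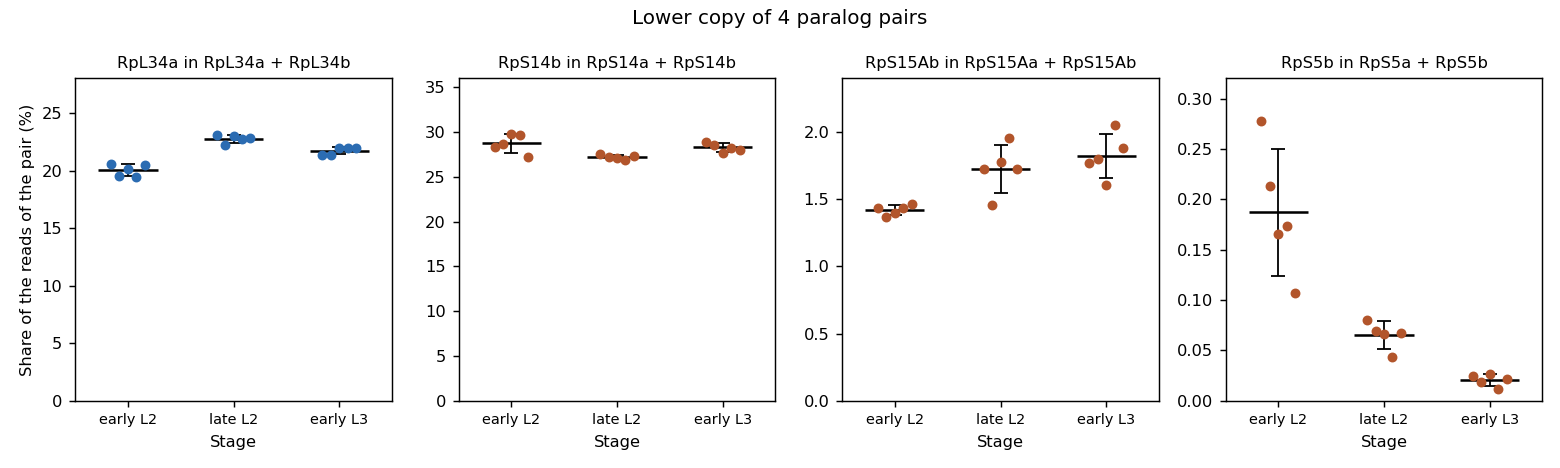
Share (%) of the reads of a paralog pair held by its lower copy in each library at early L2, late L2 and early L3; points are libraries, bars the mean and SD of 5, each axis with its own range from 0. *RpL34a* is highest in late L2 (22.8%), *RpS14b* lowest in late L2 (27.2%), *RpS15Ab* lowest in early L2 (1.42%), and *RpS5b* falls at each step (0.187, 0.0653 and 0.0205%).

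*RpS10a* and *RpS19b*, the other copies known mainly from the germline, were at the floor of detection. *RpS10a* had 0 to 6 reads and *RpS19b* 0 to 8 reads per library, at or under 3 reads in 12 and 11 of the 15 libraries, so that no change could be measured at this depth. *RpS10b* averaged 754 ± 52.5 CPM in early L3 and 959 ± 57.1 CPM in late L2, and *RpS19a* averaged 818 ± 51.4 CPM in early L3 and 1111 ± 87.8 CPM in late L2 (SD, n = 5 each). The partners of *RpL10Ab* and *RpS28b*, *RpL10Aa* and *RpS28a*, had no entry in the deposited table. *RpL22-like*, outside the rule and known from the testis, had 0 to 3 reads per library, beside 770 ± 47.8 CPM of *RpL22* in early L3 and 1042 ± 53.4 CPM in late L2 (SD, n = 5 each). Also outside the rule, *RpL37-1* averaged 811 ± 53.5 CPM in early L3 and 1166 ± 110 CPM in late L2, and *RpL37-2* had 0 to 3 reads. *Rack1*, a scaffold protein of the 40S head, averaged 1451 ± 96.4 CPM in early L3 and 1993 ± 149 CPM in late L2 (SD, n = 5 each).

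Other genes of the translation machinery were set beside the group. Of 38 listed translation initiation and elongation factors, 28 were found in the table by symbol. Of these 9 fell into early L3, beside 18.7% of all entries, none rose and 19 did not pass. Their median log2 fold change was -0.46, and 27 were lower at an adjusted p under 0.05 alone, beside 37.0% of all entries. Of 73 mitochondrial ribosomal proteins, 68 fell, none rose and 5 did not pass, with a median of -0.86. Of 34 listed nucleolar assembly factors and RNA polymerase I genes, 31 were found by symbol. Of these 30 fell, none rose and 1 did not pass, with a median of -1.80. *Fib*, the nucleolar methyltransferase fibrillarin, fell to 33.4 ± 9.91 CPM in early L3, against 164 ± 34.99 CPM in late L2 (SD, n = 5 each). *Polr1B*, the second largest subunit of RNA polymerase I, fell by 1.92 on the log2 scale. With median-ratio scaling 3 of the translation factors, 59 of the mitochondrial ribosomal proteins and 30 of the assembly genes fell, beside 13.1% of all entries. The ribosomal-protein-like genes *RpL7-like*, *RpL24-like* and *RpLP0-like*, whose yeast relatives act in the assembly of the 60S subunit, all fell. *RpL7-like* averaged 21.9 ± 3.55 CPM in early L3 and 56.9 ± 8.16 CPM in late L2 (log2 fold change -1.36), *RpL24-like* 41.9 ± 8.54 CPM in early L3 and 97.8 ± 17.3 CPM in late L2 (-1.22), and *RpLP0-like* 19.3 ± 4.87 CPM in early L3 and 65.6 ± 11.3 CPM in late L2 (-1.76; SD, n = 5 each).

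Of 17 listed growth regulators, 16 were found by symbol. Among these 3 fell into early L3, 1 rose and 12 did not pass, shares close to the 18.7% and 6.45% of all entries. At an adjusted p under 0.05 alone, 11 were lower, beside 37.0% of all entries, and 2 were higher, beside 17.0%. With median-ratio scaling 2 fell, beside 13.1% of all entries. *Myc*, which drives ribosome production in flies, fell to 50.7 ± 16.97 CPM in early L3, against 154 ± 12.3 CPM in late L2, and *Mnt*, its antagonist, rose to 43.5 ± 4.10 CPM in early L3, against 23.9 ± 1.74 CPM in late L2 (SD, n = 5 each). *Tbp*, a general transcription factor gene whose transcript served with *RpL32* as a reference in the RT-qPCR of the study, was at 7.27 ± 0.938 CPM in early L3 and 9.90 ± 0.790 CPM in late L2 (log2 fold change -0.43).

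**Figure D5:**
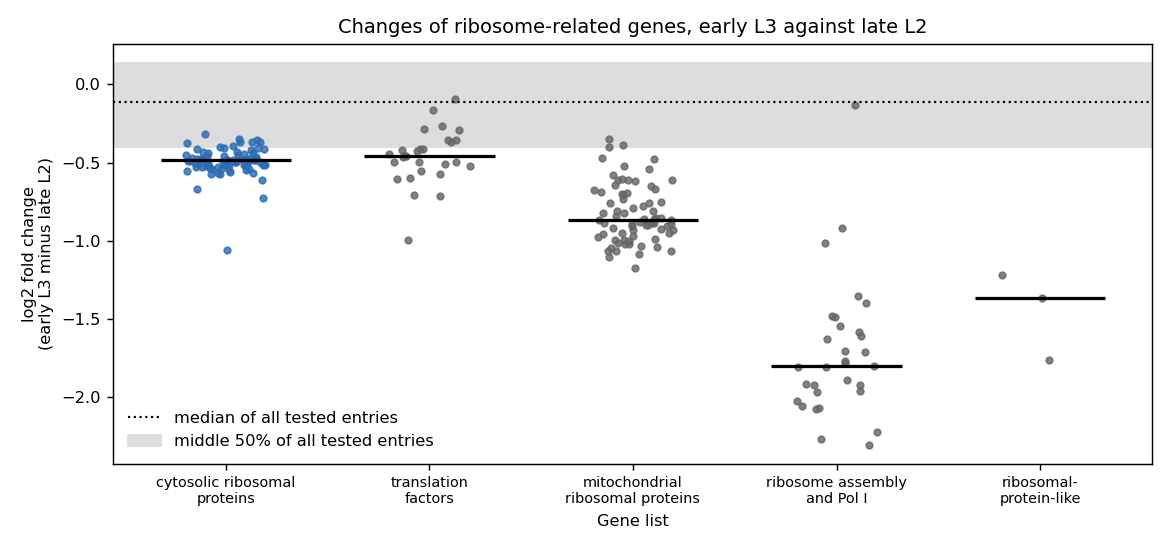
log2 fold change (early L3 minus late L2) of each tested gene in 5 lists; points are genes, black bars list medians, and the grey band holds the middle 50% of all entries (-0.40 to 0.14) around their median of -0.11 (dotted). The cytosolic ribosomal proteins lie in a narrow range around -0.48, with mitochondrial ribosomal proteins at -0.86 and assembly factors at -1.80.

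Changes were also described by position and level, with no test. Genes lie on 2L (17), 2R (18), 3L (14), 3R (20), 4 (1) and X (14), and median log2 fold changes into early L3 ranged from -0.44 on X to -0.51 on 3R over arms with more than 1 tested gene. The quartiles were -0.476 and -0.41 for the 14 genes on X, and nearly touched those of 3L (-0.52 and -0.483) and 3R (-0.52 and -0.476). Those of 2L (-0.54 and -0.43) and 2R (-0.52 and -0.46) overlapped the range on X. Between early L2 and early L3 the quartiles on X (-0.613 and -0.527) overlapped those of 3L (-0.613 and -0.580) and 3R (-0.642 and -0.583). The 29 genes that hold snoRNA genes within their span had a median of -0.49, and the 53 others -0.48. Across the 80 genes above 50 CPM on average, the change had a Pearson correlation of 0.05 with the log2 level per kb and of -0.13 with the log2 exon length, over genes that share the same libraries. Within stages the genes also moved together: the median Pearson correlation between pairs of genes, over 15 libraries with stage means removed, was 0.81. No such value was taken for other entries, so whether it is particular to these genes was not tested.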

How the data were processed

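Poly(A) RNA of 15 midgut libraries (stranded TruSeq) was sequenced. The submitters' notes name STAR 2.7.10a, Salmon 1.5.2, Trim Galore 0.6.7 and build BDGP6, without roles. The authors deposited CPM per gene, reads scaled to the library total. All 166854 values above 0 were whole reads within 0.001 after division by the value of 1 read (100% of values), and edgeR 4.0.16 and DESeq2 1.42.0 were run on these as alternatives. A second deposited table holds the authors' own fold changes and was not used. Symbols came from the deposited table and coordinates from the BDGP6.54 annotation, which all 84 genes matched.

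The 9787 entries reaching 0.5 CPM in 1 library or more were tested as log2(CPM + 0.5) with limma 3.58.1 in R 4.3.3, in 1 fit over 15 libraries with an intensity trend. On this scale the change of low genes is understated. Calls needed a Benjamini-Hochberg adjusted p under 0.05 over all entries and a log2 change of at least 0.5. Exact permutation tests covered 252 arrangements. The test was checked on simulated data in which genes varied independently and library totals were known. That check does not cover the choice of scaling or shifts shared by many genes. Genes named are both copies of each pair, the 3 highest per kb of each subunit, the 4 smallest p-values and largest changes per comparison, the stalk, and genes chosen by function; not every gene that this takes is described. The members and lists were chosen with earlier results of these data known. Alternatives were other pseudocounts, filters, scalings, count tests, fold minimums, a replicate block and each library left out. Counting error alone limits values of a few reads, and PCR copies are not independent molecules. Promoter motifs were not run.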

Additional observations from a re-analysis of the deposited data

Results flagged for a closer look

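A gap test (Dixon, 95% critical value for 5 libraries) was made on 114 groups of 5 values, and 4 were flagged, where chance flags about 1 in 20. All 4 were in early L2. *RpL24* was highest in replicate 4 at 965 CPM, with the next library at 952 CPM. *RpL32* was lowest in replicate 4 at 922 CPM, with the next at 970 CPM. *RpL41* was lowest in replicate 4 at 1671 CPM, with the next at 1954 CPM. *RpL34b* was highest in replicate 3 at 838 CPM, with the next at 807 CPM. The change into early L3 differed from that during L2, being more negative for 76 of 82 genes (limma, adjusted p under 0.05), beside 26.8% of all entries. With median-ratio scaling it was more negative for 49, beside 19.9%.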

How the results depend on the processing

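Between late L2 and early L3, where 32 genes fell with a median of -0.48, the scaling and the minimum fold change decided the count. It was 3 with median-ratio scaling (median -0.34), TMM scaling (-0.35), edgeR (-0.35) and DESeq2 (-0.34), 61 with totals that leave out the ribosomal protein reads, 82 with no minimum and 1 with a minimum of 1. Leaving out the 2 libraries that stood apart gave 59. This choice and the scaling to the total of ribosomal protein reads were made after seeing the data. Between early L2 and early L3, where 73 fell, the count was 13 with median-ratio scaling (median -0.44), 11 with TMM (-0.43), 11 with edgeR (-0.43), 13 with DESeq2 (-0.44) and 1 with a minimum of 1. Between early and late L2, 8 were lower with no minimum, and 5 to 31 over the other settings. Leaving out each library in turn gave 18 to 56 genes that fell between late L2 and early L3, 65 to 77 between early L2 and early L3, and 1 during L2. Pseudocounts and filters did not move these counts by over 1.5 times. With a pseudocount of 4 the ratio of *RpS5a* to *RpS5b* reversed between early L3 and late L2, to -0.20, and fell to 0.19 between early L3 and early L2 (exact permutation p = 0.111). *RpS5b* lies below this pseudocount in every library except early L2 replicate 1 (4.85 CPM). Without the 5 genes of highest CPM the group held 9.61% of reads at early L2, 8.96% at late L2 and 6.41% at early L3, with subunit ratios of 1.39, 1.41 and 1.39.

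Replicate numbers did not pair the libraries, with correlations of same-numbered deviations from -0.15 to 0.29 and the own number best in 5 of 15. A replicate block gave 32 genes that fell between late L2 and early L3, 73 between early L2 and early L3 and 1 during L2, the same counts as without it. Early L3 values of *RpS5b* are limited by depth.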
